A study of Mus musculus with 4 samples.

Results

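Calb1, Tdo2, Dsp and Il1r1 are the genes used in the study as markers of mature granule cells (GCs), the principal neurons of the hippocampal dentate gyrus (DG). They were taken by their gene symbols, as all probe sets on the array that are annotated to a single one of them, which gave 4 of 12393 genes and 8 of 22626 probe sets. A probe set is a group of short probes designed to read transcripts of a gene, and some are annotated to more than 1 gene. DG tissue came from C57Bl/6 mice (males of the J or N substrain, obtained at 8 weeks of age, by the study's methods), and each array holds a pool of RNA from 3 mice, with 1 array per group and therefore no replicate. Electroconvulsive stimulation (ECS), a rodent model of electroconvulsive therapy, was given through ear clips under isoflurane. The sham group had the same handling but no current, and was taken at 1 h. The single ECS group was taken 1 h after its only stimulation, the 10 ECS group 48 h after the last of 10 stimulations, and the 11 ECS group 1 h after the last of 11, with sessions spread over up to 3 weeks. The study's description of the RNA implies that mice of the 10 ECS group also had a sham session 1 h before dissection, which the sample labels do not give. Groups follow the titles, sources and treatment fields of the samples, whose free-text descriptions name another treatment for 3 of the 4.

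GCs mature over several weeks after their birth, in development and again in adult neurogenesis, and switch on a late set of genes as they do so. Calb1 encodes calbindin, a cytosolic calcium buffer that is abundant in mature GCs and absent from newly born ones. Tdo2 encodes tryptophan dioxygenase, which opens the kynurenine route of tryptophan breakdown. Dsp encodes desmoplakin, which ties intermediate filaments to the desmosomes of epithelial and heart cells. Il1r1 encodes the signalling receptor of the cytokine interleukin-1, which is also found on endothelial cells. Calbindin is likewise made by some interneurons and by pyramidal cells of area CA1. In a dissected tissue, fewer cells of a type and less RNA per cell cannot be told apart.

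The unit of all levels is the MAS5 signal, a linear brightness value per probe set. For ratios, signals below 12 units (the 25th percentile over the arrays) were raised to 12, called the floor. The arrays differed in brightness, with a median signal of 69.3 in sham against 56.3, 62.4 and 56.7 in the single, 10 and 11 ECS groups, so the median log2 ratio of all genes against sham was -0.24, -0.14 and -0.23 for the other groups in this order. The only error that can be measured is that between probe sets of the same gene, whose pooled SD of the log2 ratio lay between 0.27 and 0.31 for the 5 comparisons. It covers neither arrays nor mice, and no p-value is given. The comparisons of single, 10 and 11 ECS with sham share the sham array, whereas those of single ECS with sham and of 11 with 10 ECS share none. As a check of the labels, Fos and Arc, genes switched on by neuronal activity, had sham levels of 139 and 119 units, which stood at 1833 and 3570 after the first ECS, 82.8 and 67.5 after 10 and 937 and 1360 after the 11th. GC identity genes were present, with Prox1 at 57.1 to 69.8 units and C1ql3, which encodes a secreted synaptic protein, at 3313 to 4200 units.

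All of the 4 markers were highest in sham and lowest 1 h after the 11th ECS. Calb1 read 3234 units in sham, 2747 after a single ECS, 1507 after 10 ECS and 1304 after 11 ECS by its brighter probe set. Sham and single ECS, and likewise 10 ECS and 11 ECS, lay closer together than the SD between probe sets, and the wide gap stood between both pairs. Its dimmer probe set read 306, 238, 109.9 and 73.8 units in the same order of groups and ordered the arrays in the same way. The steps were wider there, 1.29-fold from sham to single ECS and 1.49-fold from 10 to 11 ECS, both beyond that SD.

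Tdo2 read 290.2 units in sham, 189 after a single ECS, 158 after 10 ECS and 82.3 after 11 ECS by its brighter probe set. As deposited, its single ECS and 10 ECS levels were 0.25 apart on the log2 scale, within the SD between probe sets. Sham lay above them and 11 ECS below. The dimmer probe set read 73.6, 43.1, 40.3 and 25.1 units, again with its middle values side by side.

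Dsp read 1702 units in sham, 1125 after a single ECS, 993 after 10 ECS and 582 after 11 ECS by its brightest probe set. As for Tdo2, the single ECS and 10 ECS arrays were not separated as deposited, with a gap of 0.18 on the log2 scale. The next probe set of Dsp read 1558, 1011, 975 and 544 units. The remaining one read 13.5, 17.4, 5.5 and 1.5 units, near or under the floor, and carries no usable ratio.

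Il1r1, with its only probe set, read 241 units in sham, 85.1 after a single ECS, 165 after 10 ECS and 49.4 after 11 ECS. It was the exception in order: the array at 48 h after 10 ECS stood above that at 1 h after a single ECS, by 1.94-fold, whereas Calb1 stood 1.82-fold below it there. Every neighbouring pair in the order of Il1r1 was at least 0.55 apart on the log2 scale.

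Sham highest and 11 ECS lowest was a common order on these arrays, held by 24.5% of 10449 genes as deposited and by 8.89% after the arrays were scaled to the same median. After that scaling Tdo2, Dsp and Il1r1 kept their order, whereas Calb1 read 2855 units in sham against 2985 for single ECS, so the single ECS array came first and Calb1 no longer had this order. Single and 10 ECS then lay further apart, at 205 and 155 units for Tdo2 and 1223 and 973 units for Dsp. Both gaps then exceeded the SD between probe sets, so the separation of these arrays depended on the scaling.

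**Figure D1:**
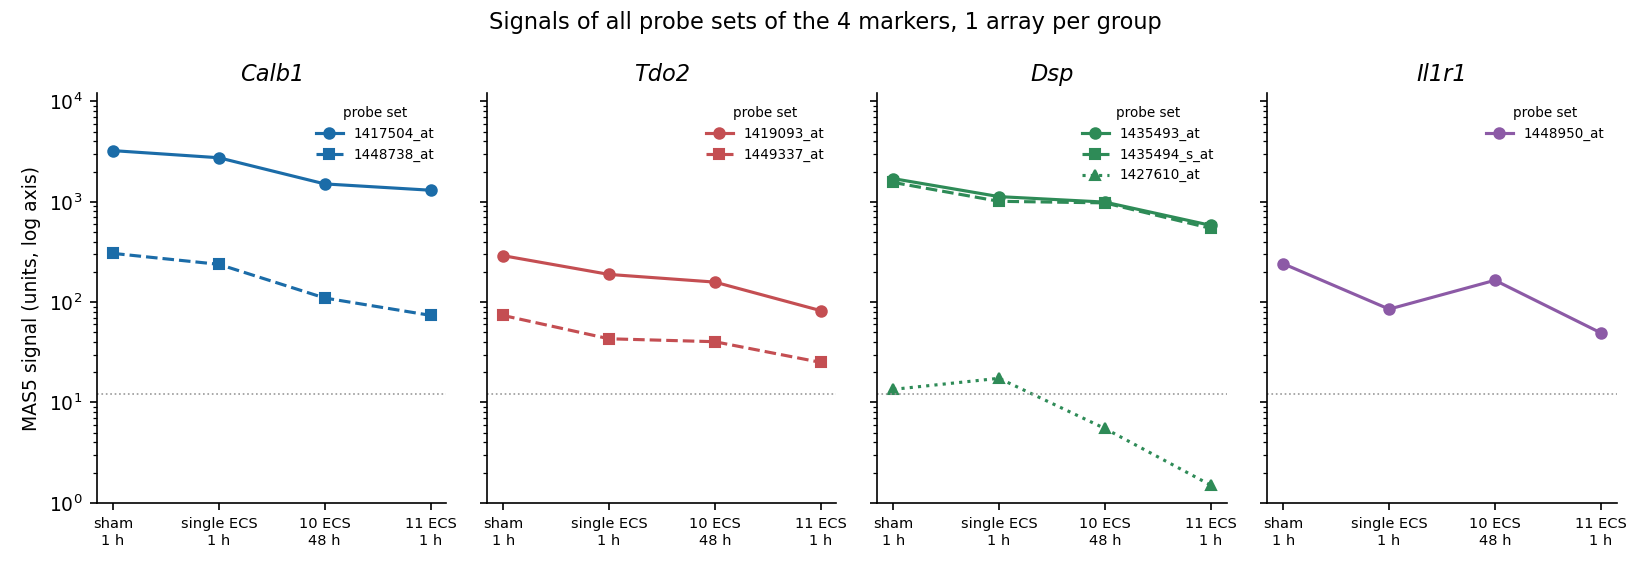
MAS5 signals (units, log axis) of the 8 probe sets of the markers on the 4 arrays, each point 1 array, with the floor of 12 units as a dotted line. Calb1 steps down between single ECS (2747 units) and 10 ECS (1507 units), whereas Il1r1 goes down to 85.1 units at 1 h, stands at 165 at 48 h and is lowest at 49.4 after the 11th ECS.

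The promoter windows of the markers are shown because the 4 genes were lower together, and letters of sites for activity-regulated factors can be looked for in them. RefSeq windows of assembly GRCm38.p6, from 250 bases before to 50 after a transcript start, were found for 3 of the 4 markers, with 2 starts for Il1r1. They are printed 5′ to 3′ on the gene's strand, with capitals marking matches on either strand to the cAMP response element TGACGTCA or its TGACG part, the AP-1 site TGANTCA, the Egr site GCGNGGGCG, the GC box GGGCGG, the E-boxes CAGCTG and CACGTG, the TATA box TATAAA and the kappaB site GGGANTTCC.
Tdo2 promoter (chr3:81975679-81975978, minus strand): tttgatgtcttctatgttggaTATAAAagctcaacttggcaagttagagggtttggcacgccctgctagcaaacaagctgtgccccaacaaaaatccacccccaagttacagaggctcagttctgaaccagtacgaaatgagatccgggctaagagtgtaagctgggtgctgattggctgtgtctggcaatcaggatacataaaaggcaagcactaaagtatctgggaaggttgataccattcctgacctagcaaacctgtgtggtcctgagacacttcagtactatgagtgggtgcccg
Dsp promoter (chr13:38151044-38151343, plus strand): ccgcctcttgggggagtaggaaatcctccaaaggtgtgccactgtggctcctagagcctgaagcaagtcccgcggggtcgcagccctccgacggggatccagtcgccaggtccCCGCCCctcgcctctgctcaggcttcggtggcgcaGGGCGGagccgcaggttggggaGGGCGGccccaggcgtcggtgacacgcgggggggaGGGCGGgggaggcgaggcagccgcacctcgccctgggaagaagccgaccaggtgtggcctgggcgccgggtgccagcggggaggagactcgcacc
Il1r1 promoter window 1 (chr1:40224830-40225129, plus strand): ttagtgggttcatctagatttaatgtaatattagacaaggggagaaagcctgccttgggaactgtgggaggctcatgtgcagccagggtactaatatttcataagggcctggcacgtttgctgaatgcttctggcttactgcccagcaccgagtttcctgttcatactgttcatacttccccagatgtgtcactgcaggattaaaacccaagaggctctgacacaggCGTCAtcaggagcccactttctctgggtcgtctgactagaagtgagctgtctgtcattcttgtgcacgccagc
Il1r1 promoter window 2 (chr1:40266336-40266635, plus strand): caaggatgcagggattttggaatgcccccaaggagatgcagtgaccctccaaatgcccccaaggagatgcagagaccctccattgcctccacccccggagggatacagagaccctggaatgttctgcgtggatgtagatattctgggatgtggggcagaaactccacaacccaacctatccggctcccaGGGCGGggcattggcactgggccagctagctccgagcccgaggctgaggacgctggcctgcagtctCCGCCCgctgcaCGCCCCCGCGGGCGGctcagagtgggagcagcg

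The windows were unlike each other. That of Dsp had a G and C content of 73.0%, against a median of 52.7% over all 32851 windows. It held 4 GC boxes, and 35.7% of all windows hold at least 1. The second window of Il1r1 had a content of 63.3%, 3 GC boxes and 1 match to the Egr site, the latter present in 5.55% of all windows and lying directly before the last GC box. The first window of Il1r1 held TGACG once, on the opposite strand at position -23 from the start, as 20.8% of windows do. The Tdo2 window held only TATAAA, at position -229 from the start, where 13.6% of windows hold it somewhere. No window of the 3 genes held the full cAMP response element, the AP-1 site, either E-box or the kappaB site, which occur in 1.79%, 7.81%, 16.3%, 7.15% and 1.68% of windows. A match is a matter of letters and does not show a bound factor.

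Single ECS was compared with sham to see the markers at 1 h after a first stimulation. Il1r1 was 2.83-fold lower, and 1 of the 4 markers was thus at least 2-fold lower, against 2.89% of the 10133 genes with a value. Tdo2 was 1.54-fold and Dsp 1.51-fold lower, and 3 markers were past 1.5-fold, as were 15.3% of all genes. Calb1 was 1.18-fold lower, with a log2 ratio of -0.24 equal to the median of all genes, and 50.5% of genes had a lower ratio. The direction of Calb1 depended on the scaling, since its log2 ratio was 0.06 after the arrays were scaled to the same median. In that setting Tdo2 and Dsp had log2 ratios of -0.32 and -0.30 and Il1r1 of -1.20, so that 1 marker in place of 3 was past 1.5-fold, against 4.87% of genes.

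Among the 7004 genes with at least 48 units on all arrays, which is 4 times the floor, 3 had a lower ratio than Il1r1 after a single ECS. These were Npy5r, Rasl10a and Tiam2, with log2 ratios of -1.60, -1.57 and -1.53, named after their values were seen. Of the same genes, 8.70% lay below Tdo2 and 9.87% below Dsp. That limit leaves out any gene that was under 48 units after a single ECS. Over all 10133 genes with a value, 37 had a lower ratio than Il1r1, and 13.4% lay below Tdo2 and 14.6% below Dsp.

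The comparison of 10 ECS with sham shows which differences were present when no stimulation had been given for 48 h. Here Calb1 led, 2.15-fold lower by its brighter probe set and 2.78-fold by the dimmer. It was the only marker at least 2-fold lower, against 1.22% of 10202 genes. Tdo2 was 1.83-fold, Dsp 1.71-fold and Il1r1 1.46-fold lower. Past 1.5-fold were 3 of the 4, against 7.17% of genes. Among all genes, 0.843% had a lower ratio than Calb1, 2.18% than Tdo2, 3.38% than Dsp and 8.34% than Il1r1. After scaling to the same median, the log2 ratio of Calb1 was -0.95, just short of 2-fold, and 0.726% of genes were at least 2-fold lower.

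**Figure D2:**
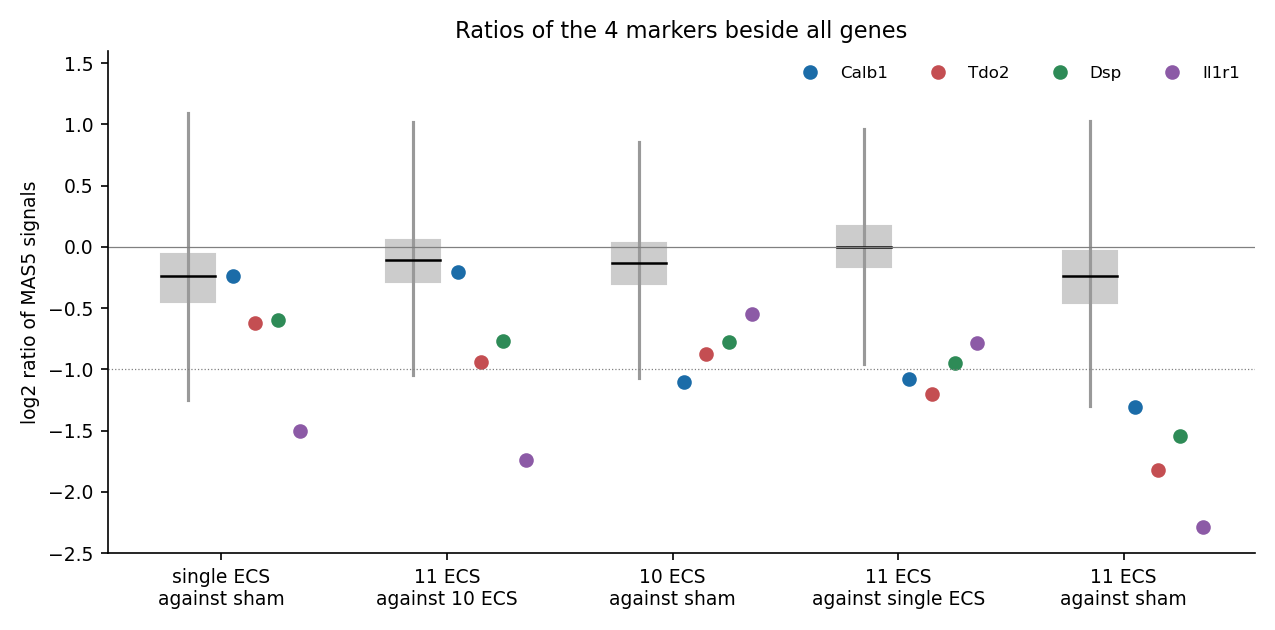
Log2 ratios of MAS5 signals of the 4 markers (coloured points, brightest probe set) in 5 comparisons, beside all genes (grey line, 1st to 99th percentile; box, middle 50%; black bar, median; dotted line, 2-fold lower). Calb1 lies at the median of all genes after a single ECS (-0.24) and lowest of the markers at 48 h after 10 ECS (-1.10), whereas Il1r1 is the lowest of the markers in the first (-1.50) and the highest in the second (-0.55).

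The 11th ECS was compared with 10 ECS to see the acute step in mice with earlier sessions. Il1r1 was 3.34-fold lower, from 165 to 49.4 units, and was the only marker past 2-fold, against 1.21% of 10046 genes. Over all genes, 3 had a lower ratio, named after their values were seen. Of these, Icosl read 42.0 and 12.4 units, and Aldh16a1 and Hbb-b2 were under the floor on the 11 ECS array. Tdo2 was 1.92-fold and Dsp 1.70-fold lower, and 1.51% and 3.17% of genes lay below them. Past 1.5-fold were again 3 of the 4, against 6.9% of genes. Calb1 was 1.16-fold lower by its brighter probe set, within the SD between probe sets, and 1.49-fold by its dimmer.

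Il1r1, Tdo2 and Dsp were lower 1 h after the first ECS and again 1 h after the 11th, and Calb1 differed at either time by less than the SD between probe sets by its brighter probe set. By its dimmer probe set Calb1 had log2 ratios of -0.36 and -0.57, beyond that SD at both times. The medians of all genes were -0.24 and -0.11 there. The response to the 11th ECS and that to the first were measured on separate pairs of arrays. Their difference on the log2 scale, the 11th minus the first, was 0.03 for Calb1, -0.32 for Tdo2, -0.17 for Dsp and -0.24 for Il1r1, against a median of 0.13 over all genes. The dimmer probe sets gave -0.21 for Calb1 and -0.22 for Dsp, but 0.09 for Tdo2, so the sign for Calb1 and for Tdo2 differed between their probe sets. No marker differed by 2-fold between the responses, as 3.66% of genes did in either direction. No test of these differences is possible with 1 array per group.

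**Figure D3:**
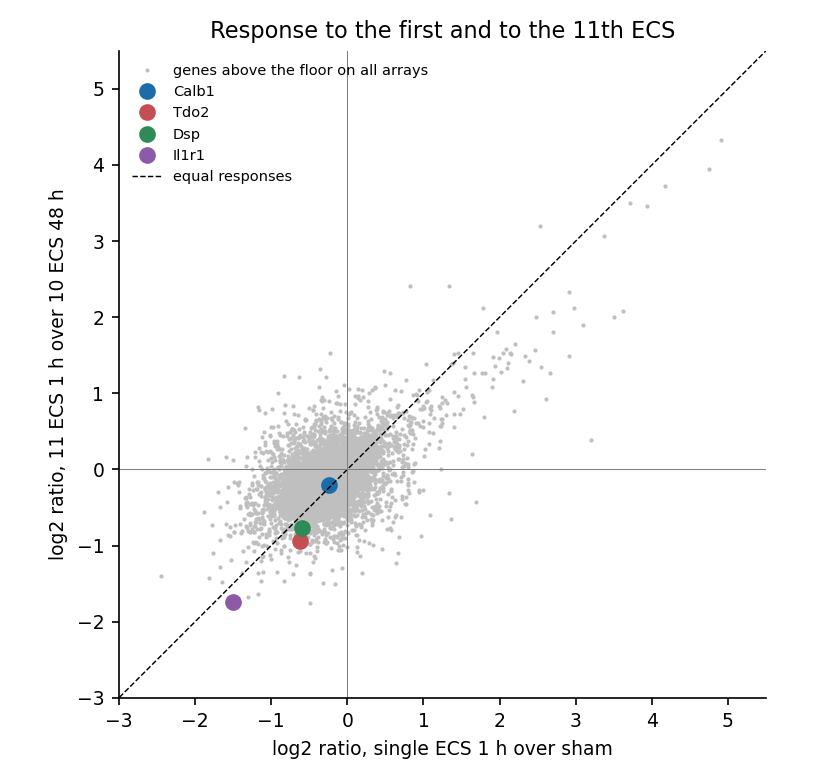
Log2 ratio of 11 ECS over 10 ECS against that of single ECS over sham, each grey point 1 gene that exceeded the floor on each array, and the dashed line equal responses. Calb1 (-0.24, -0.21) sits in the cloud of all genes near the line, whereas Il1r1 (-1.50, -1.74) lies at its lower left edge.

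Both arrays at 1 h after ECS were then compared with each other. After 11 ECS all 4 markers were lower than after a single ECS, by 2.11-fold for Calb1, 2.29-fold for Tdo2, 1.93-fold for Dsp and 1.72-fold for Il1r1. Thus 2 of the 4 were at least 2-fold lower, against 0.782% of 9971 genes. All 4 were past 1.5-fold, against 4.22%. These arrays had nearly equal brightness, with a median log2 ratio of 0.00060 over all genes. By the dimmer probe sets, Calb1 was 3.22-fold and Tdo2 1.72-fold lower, so the probe sets of Tdo2 lay on either side of 2-fold.

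Against sham, the 11 ECS array had the largest differences for every marker. Il1r1 was 4.88-fold lower, Tdo2 3.53-fold, Dsp 2.92-fold and Calb1 2.48-fold. All 4 were at least 2-fold lower, against 3.11% of 10136 genes, and remained so after scaling to the same median, where 1.15% of genes were. Over all genes, 2 had a lower ratio than Il1r1, named after their values were seen. They were Ogn, a secreted proteoglycan gene, at 240.7 units in sham and 21.5 after 11 ECS, and the zinc finger gene Zfp53, at 121 and 24.7 units. Of all genes, 0.0987% lay below Tdo2, 0.385% below Dsp and 0.957% below Calb1. Among the 7004 genes with at least 48 units on all arrays, Il1r1 had the lowest ratio and Tdo2 the next. Rph3a followed with a log2 ratio of -1.59, then Dsp, and Calb1 held rank 20 from the lowest. That limit leaves out any gene under 48 units after 11 ECS, and Il1r1 passed it with 49.4 units.

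The markers reached this common end in different ways. Of the log2 difference between sham and 11 ECS, 84.0% was already present at 48 h after 10 ECS for Calb1, 50.2% for Dsp, 48.1% for Tdo2 and 23.9% for Il1r1. The dimmer probe sets gave 72.0% for Calb1, 56.0% for Tdo2 and 44.6% for Dsp. The rest was the step between the 10 ECS and 11 ECS arrays. Calb1 and Il1r1 thus stood at opposite ends, with Tdo2 and Dsp between them.

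Probe sets of the same marker gave the same direction as deposited. Leaving out the dim probe set of Dsp, 15 of 15 pairs of ratios from a brighter and a dimmer probe set shared their sign, and 10 of 15 differed by less than the pooled SD. The pairs are not independent, since the comparisons share arrays. Against sham, the medians of all genes were -0.24, -0.14 and -0.23 for single, 10 and 11 ECS, so array brightness by itself favours a shared sign. After scaling to the same median, Calb1 had a log2 ratio of 0.06 for single ECS against sham by its brighter probe set. Whether the signs agree on scaled arrays was not tested. The widest gap, 0.74 on the log2 scale, was that of Calb1 for 11 ECS against sham, where the dimmer probe set had the larger difference, 4.14-fold lower.

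Genes with patterns most like each marker were sought among the 7004 genes with at least 48 units on all arrays, as the shortest distance in the log2 ratios of the other 3 arrays to sham, after scaling to the same median. Distances over so few arrays describe only these libraries. For Calb1 these were Capn3, which encodes a calcium-dependent protease (distance 0.25), Pip5k1b, a phosphoinositide kinase gene (0.27), and Bcl6, a transcriptional repressor gene (0.30). Capn3 read 232, 195, 123 and 83.7 units from sham to 11 ECS, and Bcl6 read 802, 609.7, 397 and 381. For Tdo2 the nearest gene was Dsp (0.29), followed by Rph3a, which encodes the vesicle protein rabphilin (0.46), and Pald1 (0.50). For Dsp they were Pald1 (0.27), Arhgap20 (0.28) and Tdo2 (0.29). Tdo2 was hence the third nearest to Dsp, and Dsp the nearest to Tdo2.

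Among the genes searched, Il1r1 had no close neighbour. The search left out any gene under 48 units on an array, and Il1r1 passed with 49.4 units after 11 ECS. Dimmer genes that fell as steeply could therefore not enter, and whether they share its pattern was not tested. The nearest genes to Il1r1 in the search were Tiam2, an activator of Rac (0.78), Hs3st1, which encodes a heparan sulfate sulfotransferase (0.83), and Fam117a (0.85). Tiam2 read 280.2, 97.2, 220.4 and 96.6 units from sham to 11 ECS, low on both arrays at 1 h after ECS like Il1r1, but with nearly the same level on both. Seen from Calb1, Il1r1 ranked 5482 of 7003 genes by distance, whereas Dsp ranked 31 and Tdo2 70.

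The other genes of the pathways to which the markers belong were compared over the same arrays. For 11 ECS against sham the markers had a median log2 ratio of -1.68, and the medians of the 4 pathway lists lay between -0.37 and -0.12. Over all genes 3.11% were at least 2-fold lower and 1.1% higher there, so a count of 0 or 1 in lists of this size does not set them apart. Of the interleukin-1 signalling list, 19 of 27 genes had a value for 11 ECS against sham. By the brightest probe set of each gene, 0 were at least 2-fold higher or lower, and the median was -0.30. Among its receptor genes, Il1rap, the accessory chain that pairs with the Il1r1 product, read 116 units in sham, 114 after a single ECS, 64.7 after 10 ECS and 73.5 after 11 ECS. By this probe set it was low on the arrays after repeated ECS and close to sham after a single ECS. Another, dimmer probe set of Il1rap read 53.2, 33.9, 32.4 and 28.0 units and was below sham on all 3 arrays, and the dimmest, nearer the floor, read 24.9, 29.7, 13.0 and 28.0 units, so the probe sets disagree on the single ECS array and on the 11 ECS array. Further down the pathway, the ubiquitin ligase gene Traf6 read 99.3, 70.2, 64.2 and 53.4 units and the kinase gene Irak1 273, 235, 214 and 179. A probe set of Irak1 with nearly the same mean brightness read 398, 187, 157 and 158 units, more than 2-fold below sham on all 3 arrays. Its dimmer probe sets read 207, 124, 126 and 132 units and 128, 149, 133 and 116 units, short of 2-fold. The probe sets of Irak1 thus disagree on the size of the difference. Tab1, which encodes an adaptor of the kinase TAK1, read 103, 57.4, 70.5 and 76.8 units. The ligand genes were dim, with Il1b between 14.6 and 20.5 units and Il1a at or under the floor on all arrays.

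For Tdo2, 7 of 16 genes of tryptophan and kynurenine metabolism had a value for 11 ECS against sham, 0 were past 2-fold, and the median was -0.37. Of the 13 on the array 5, among them the kynurenine enzyme genes Kynu, Haao and Aadat, were under the floor on all arrays. Kyat3, a kynurenine aminotransferase gene, read 71.4 units in sham and 77.9 after 10 ECS but 41.2 and 46.5 at 1 h after the first and the 11th ECS. Ddc, the decarboxylase gene of serotonin and dopamine synthesis, read 62.9, 52.6, 45.7 and 46.2 units from sham to 11 ECS. Wars, a tryptophan tRNA ligase gene, read 258 units in sham and 196 after 11 ECS, and Slc7a5, an amino acid transporter gene, 332 and 259.

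For Dsp, 12 of 20 desmosome and intermediate filament genes had a value for 11 ECS against sham, 0 were past 2-fold, and the median was -0.20. The desmosomal plaque gene Pkp2 read 919.7 units in sham, 594 after a single ECS, 694 after 10 ECS and 561 after 11 ECS. It was lower than sham on all 3 arrays but, unlike Dsp, did not go further down with repetition beyond 1.06-fold. Jup, another plaque gene, read 33.4 and 35.7 units in sham and 11 ECS, whereas Vim, which encodes the filament protein vimentin, read 431 and 596. Ppl, which encodes periplakin, read 38.1 units in sham, 14.6 after a single ECS, 58.0 after 10 ECS and 33.1 after 11 ECS. After a single ECS, where its level was close to the floor of 12, it was the only list member at least 2-fold lower. This was 1 of 13 with a value, against 2.89% of all genes.

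For Calb1, 15 of 21 EF-hand calcium buffer and sensor genes had a value for 11 ECS against sham, 0 were past 2-fold lower and 1 past 2-fold higher (3.11% and 1.1% of all genes), and the median was -0.12. The higher one was S100a6, with 100.3, 77.6, 193 and 217 units from sham to 11 ECS, and its relative S100a10 read 134, 114, 209.8 and 247. Both were high on the arrays after repeated ECS, where Calb1 was low. Scgn, which encodes the calcium-binding protein secretagogin, read 72.8 units in sham and 42.8 after 11 ECS, and Necab3 62.6 and 55.4. Calb2, which encodes calretinin, a marker of young GCs, read 290.1, 319, 365 and 385 units.

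**Figure D4:**
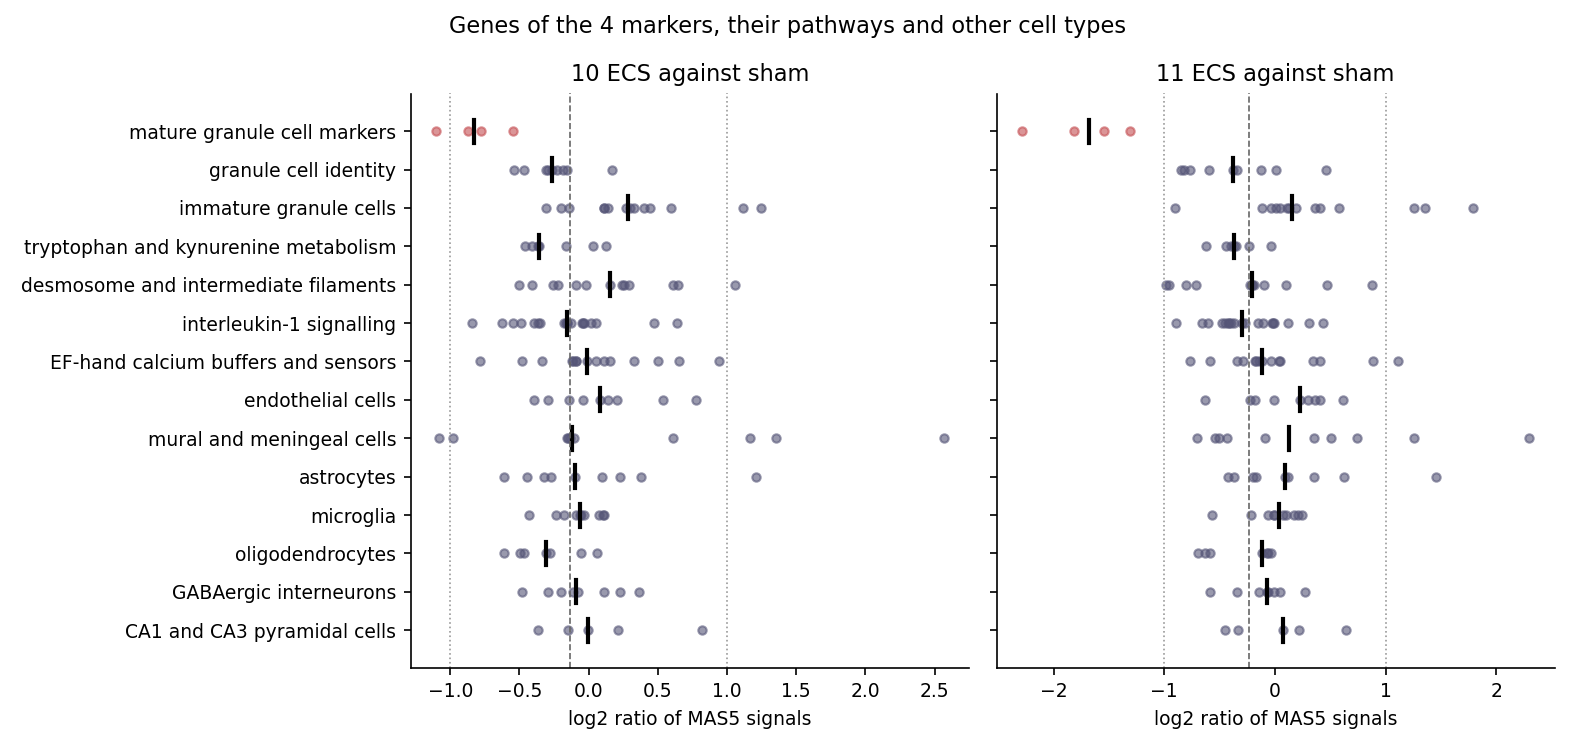
Log2 ratios of MAS5 signals for 10 ECS (left) and 11 ECS (right) against sham, each point 1 gene of the markers, the 4 pathway lists and the cell type lists other than choroid plexus, black bars the list medians, the dashed line the median of all genes and dotted lines 2-fold. The 4 markers (red) all lie beyond 2-fold lower in the right panel, as do 3.11% of all genes, and no gene of the other plotted lists does. Not plotted are Kl of the choroid plexus list, at -1.56 there, and a further probe set of Irak1 at -1.33. Points use the brightest probe set of each gene.

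Genes that mark GCs irrespective of late maturity had medians closer to sham than the markers, which had -0.61, -0.83 and -1.68 for single, 10 and 11 ECS. Of 12 GC identity genes, 9 had a value, 0 were past 2-fold in any of the 5 comparisons (of all genes, 0.782% to 3.11% were at least 2-fold lower, from which 0 of 9 does not stand apart), and the median log2 ratio was -0.45, -0.26 and -0.38 against sham for single, 10 and 11 ECS. Their summed signal, not scaled between arrays, was 77.4%, 80.3% and 73.0% of that in sham. That of the 4 markers, in which Calb1 is the brightest by far, was 75.8%, 51.6% and 36.9%. Prox1 had a log2 ratio of -0.13 for 11 ECS against sham. The lowest of the list there were Npnt (-0.85), Bcl11b (-0.82) and Lct (-0.77).

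Genes of immature GCs had a median above sham on the arrays after repeated ECS. Of 15 genes 14 had a value, and the median log2 ratio was 0.29 for 10 ECS and 0.16 for 11 ECS against sham. For 11 ECS, 3 were at least 2-fold higher and 0 lower, against 1.1% of all genes higher. They were Sox11, a transcription factor gene of young neurons (244, 499, 322.5 and 843 units from sham to 11 ECS), Igfbpl1 (49.6, 47.0, 107 and 127 units) and Tmsb10, which encodes an actin-binding peptide (1433, 1456, 3397 and 3414 units). Dimmer probe sets of Tmsb10 read 180, 203, 447 and 428 units and 51.7, 40.6, 108 and 123 units. Another read 76.8, 37.9, 49.6 and 41.2 units, below sham on every other array, so the probe sets of Tmsb10 disagree. Its dimmest was under the floor. By their brightest probe sets, Tmsb10 and Igfbpl1 shared with Calb1, in the opposite direction, arrays after a single ECS close to sham and a wide gap to those after repeated ECS. Neurod2 was the lowest of the list, with a log2 ratio of -0.90.

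Markers of other cells that the dissection could hold were read beside the 4 genes. In the order single, 10 and 11 ECS, the summed signals as a percentage of sham were 94.2, 104 and 99.8 for endothelial cells, 84.2, 101 and 103 for mural and meningeal cells, 88.1, 87.2 and 90.7 for astrocytes, 95.7, 95.4 and 99.8 for microglia, and 84.9, 89.6 and 91.2 for oligodendrocytes. They were 92.6, 91.3 and 92.7 for GABAergic interneurons, 91.7, 112 and 111 for pyramidal cells of CA1 and CA3, and 170, 97.1 and 77.3 for choroid plexus, of which 4 of 6 genes were on the array. Activity-regulated genes, 8 of 9 on the array, stood at 942, 61.5 and 568. All these sums are of unscaled signals, and the arrays themselves were dimmer than sham. Their 2% trimmed means were 239 units in sham and 214, 217 and 207 after single, 10 and 11 ECS. A sum somewhat below 100% is therefore not by itself a difference of that cell type. None of the cell type sums went as low as that of the markers after 10 or 11 ECS. The endothelial markers, of interest for Il1r1, had 0 of 9 genes past 2-fold in all 5 comparisons. Of all genes, 0.782% to 3.11% were at least 2-fold lower and 0.716% to 1.2% higher, from which 0 of 9 does not stand apart. After a single ECS, where Il1r1 had a log2 ratio of -1.50, 8 of these 9 were below sham, with a median of -0.24 and a lowest value of -0.62. The median of all genes was likewise -0.24 there, so this count does not set the endothelial genes apart. Of the interneuron genes Gad1 read 3376 units in sham and 3052 after 11 ECS, and of the CA1 genes Wfs1 read 129 and 135. Members past 2-fold against sham in these lists were Col1a1, Col1a2 and Col3a1 higher and Kcnj8 lower after 10 ECS, Gfap higher after 10 and 11 ECS, Col1a2 and Col3a1 higher and Kl lower after 11 ECS, Kl lower after 10 ECS, and Ttr higher after a single ECS. A dimmer probe set fell short of 2-fold after 10 and 11 ECS for Gfap (log2 ratios of 0.61 and 0.96) and for Col1a2 (0.63 and 0.18). In sham Col1a1 was under the floor at 4.1 units, and Col3a1 was near it at 17.9. The part of these genes in the levels of the markers was not tested.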

How the data were processed

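The data were 1 table of 4 arrays (Affymetrix Mouse Genome 430A 2.0), each of DG RNA pooled from 3 mice. The deposited values are intensity values on a linear scale, which the authors made with the MAS5 algorithm named in their processing notes, from RNA amplified by a 3′ IVT kit. No source used here gives the scaling target, and the 2% trimmed means were 239, 214, 217 and 207 units in the order sham, single, 10 and 11 ECS, so the scaling between arrays is unsettled.

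After 64 control probe sets were set aside, symbols came from the platform annotation, with a single symbol on 20380 probe sets, more than 1 on 691 and no symbol on 1555. Where a gene had several probe sets, the brightest on average stood for it. Log2 ratios were taken for 5 comparisons after signals under the floor of 12 were set to it. A gene under the floor on both arrays of a comparison was left out of it. A limit of 2-fold is a size, not a test, and no test was possible with 1 array per group. The number of arrays limits the precision.

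The markers, gene lists and comparisons were chosen with earlier results of these data known. Named were the 4 markers, the 3 genes nearest to each, up to 4 genes of each pathway list with the largest ratios among those with at least 48 units on the brighter array, the members of cell type lists past 2-fold, and Fos and Arc. Prox1, C1ql3, Npnt, Bcl11b, Lct, Neurod2, Gad1, Wfs1, Calb2, Il1b, Il1a, Kynu, Haao and Aadat were added after their values were seen. Alternatives were scaling to the same median or trimmed mean, quantile normalization, a floor of 50 or none, the median over probe sets, a 1.5-fold limit and a background of brighter genes. Calculations used Python 3.11.15, numpy 2.4.6 and pandas 2.3.3 and were checked on simulated data. Promoter sequences are from RefSeq.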

Additional observations from a re-analysis of the deposited data

How the results depend on the processing

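Under the alternatives the median log2 ratio of the 4 markers ranged from -0.65 to -0.31 for single ECS against sham, -0.86 to -0.72 for 11 ECS against 10 ECS, -0.83 to -0.67 for 10 ECS against sham, -1.02 to -0.94 for 11 ECS against single ECS, -1.68 to -1.39 for 11 ECS against sham and -0.37 to -0.16 for the difference of responses. Within a comparison of groups, a single marker had a ratio above 0 only for Calb1 in single ECS against sham, at 0.06, with arrays scaled to the same median. The 1.5-fold limit and the brighter background cannot change a ratio. The number of markers at least 2-fold lower was 0 in place of 1 for 10 ECS against sham with scaling to the same median or the same trimmed mean, since Calb1 then fell short of 2-fold. It was 1 in place of 2 for 11 ECS against single ECS with quantile normalization, where Calb1 fell short, and with the median over probe sets, where Tdo2 did. With a limit of 1.5-fold it was 3 for single ECS against sham, for 11 ECS against 10 ECS and for 10 ECS against sham, and 4 for 11 ECS against single ECS. With that limit and any of the 3 scalings together, an alternative chosen after seeing the data, the number became 1 for single ECS against sham, since Tdo2 and Dsp fell short, and again 3, 3 and 4 for the others in this order. All 4 were past 2-fold for 11 ECS against sham in all of the alternatives. The share of genes at least 2-fold lower moved more, for 11 ECS against sham from 3.11% to 1.15% with median scaling, 1.43% with a floor of 50 and 9.89% with no floor. Over the 5 comparisons it lay between 0.726% and 1.15% with median scaling, 0.16% and 1.43% with a floor of 50, and 6.80% and 9.89% with no floor. Median scaling moved the median log2 ratio of all genes for single ECS against sham from -0.24 to 0.05. No paired analysis was possible because each group has 1 array. No array could be left out for the same reason, and chance differences between single pools of mice remain unmeasured.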
